A study of Mus musculus with 32 samples.

Results

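The choroid plexus genes described here are 10 genes chosen by name from the 56415 genes of the annotated count table: Ttr, Kl, Folr1, Clic6, Kcne2, Aqp1, Otx2, Prlr, Slc4a5 and Tmem72. They were read in all 32 libraries one by one. The libraries were polyA RNA-seq of cerebellar vermis (Vms) and dorsal hippocampus (dHPC) from 16 C57BL/6J mice, with 1 library of each tissue from each mouse. The mice were ACSS2 knockouts (KO) or wild type (WT). ACSS2 is an enzyme that turns acetate into acetyl-CoA. Dams of the cPAE mice received ethanol by intraperitoneal injection (3 g per kg as a 20% by volume solution, 1 injection a day until birth), and dams of the cPSE mice the same volume of saline. The 4 groups in each tissue were KO cPAE, KO cPSE, WT cPAE and WT cPSE, each with 4 mice, 2 females (F1 and F3) and 2 males (M1 and M3), killed at postnatal day 40 to 50. All mice went through daily prenatal injections, so no group was uninjected. The brains were frozen whole and the regions were dissected cold afterwards. The labels do not give the litter of each mouse, so p-values measure the spread between mice that may share a dam.

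The choroid plexus is a folded epithelium that hangs in the brain ventricles and secretes most of the cerebrospinal fluid. Its cells pump ions and water toward the ventricle and carry hormones and vitamins from blood to brain. One sheet lies in the lateral ventricle against the hippocampus, and another lies in the fourth ventricle under the cerebellar vermis, so pieces of it can stay on either region when it is dissected. In bulk samples, fewer choroid plexus cells and less RNA per cell cannot be told apart.

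Total counts ran from 23085928 to 73803508 in vermis libraries and from 54092519 to 96664509 in hippocampal ones. The knockout was visible in each tissue: Acss2 measured 10.9 to 19.7 CPM (counts per 1000000 of the TMM-scaled library total) in KO vermis and 56.0 to 66.9 CPM in WT vermis, against 10.6 to 13.7 CPM in KO hippocampus and 50.7 to 63.8 CPM in WT hippocampus. The tissue labels matched their markers: 5 hippocampal pyramidal neuron genes summed to 42.9 to 98.3 CPM in vermis and 286 to 589 CPM in hippocampus, and 8 Purkinje neuron genes to 2958 to 10353 CPM in vermis and 700 to 1465 CPM in hippocampus. Some libraries stood apart in markers of other tissue. KO cPAE vermis F1 and M3 had 2958 and 6168 summed CPM of those Purkinje neuron genes, against 7814 to 10353 in the other 14 vermis libraries. The WT cPAE hippocampal library F3 had 379 summed CPM of 8 medial habenula genes, against 54.5 to 74.9 in the other 15. The KO cPSE hippocampal library F1, one of those with little Ttr, had 804 summed CPM of 6 thalamus genes, against 108 to 380 in the other 15. No batch could be compared, since the labels give 1 batch for all 32 libraries.

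All 10 genes passed the low-count filter in both tissues. Ttr, on chromosome 18 (ENSMUSG00000061808, GRCm39, forward strand, first listed exon 20798337 to 20798564), encodes transthyretin, the thyroid hormone carrier that choroid plexus secretes into cerebrospinal fluid. In the hippocampus Ttr measured 2358, 151, 81.6 and 2849 CPM in KO cPAE (F1, F3, M1, M3) and 88.9, 5.96, 1072 and 717 CPM in KO cPSE. It measured 444, 1693, 825 and 523 CPM in WT cPAE and 924, 29.2, 1134 and 882 CPM in WT cPSE. The highest library (KO cPAE M3) held 478 times the Ttr of the lowest (KO cPSE F3), 166037 counts against 352, and every group overlapped every other. High and low libraries stood side by side within KO cPAE, where F1 and M3 were far above F3 and M1.

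In the vermis Ttr was lower in most libraries, at 62.0, 73.6, 8.70 and 2.13 CPM in KO cPAE and 4.04, 65.8, 1.10 and 2.33 CPM in KO cPSE. It measured 3.57, 3.55, 7.83 and 1.71 CPM in WT cPAE and 20.5, 0.90, 1.52 and 2.22 CPM in WT cPSE. Only 4 vermis libraries passed 10 CPM, and all 4 were from females: KO cPAE F1 and F3, KO cPSE F3 and WT cPSE F1. Ttr in one region showed no relation to Ttr in the other that passed a test: KO cPAE F1 was high in both, while KO cPAE M3 had the most in hippocampus and 2.13 CPM in vermis. Over the 16 mice, vermis and hippocampal log2 CPM gave r = -0.262 (permutation p = 0.330) and rho = -0.229 (permutation p = 0.391), with r = -0.193 without the 2 mice farthest from the median.

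**Figure D1:**
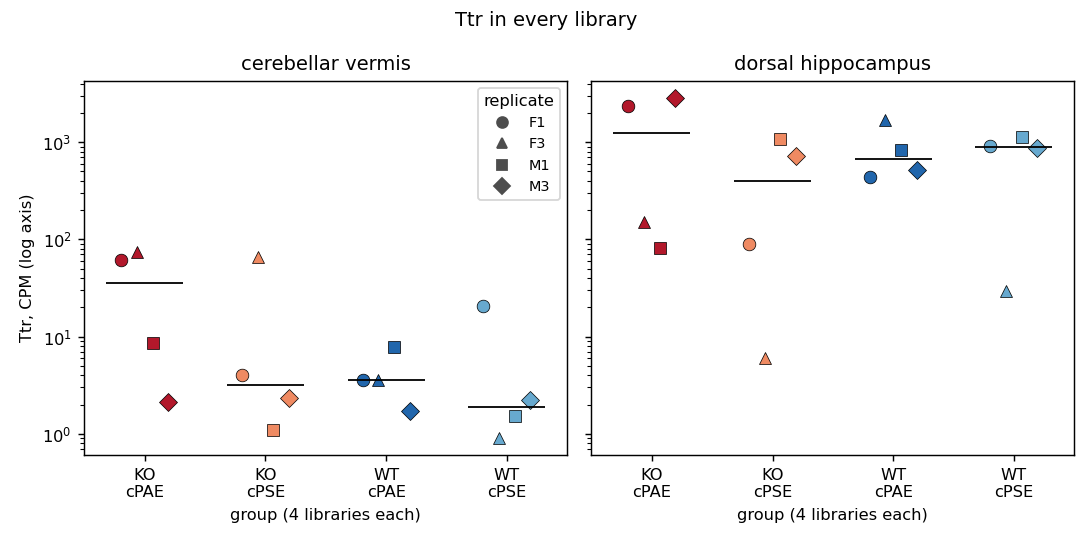
Ttr in CPM on a log axis, with cerebellar vermis on the left and dorsal hippocampus on the right. Each point is 1 library, its shape is the replicate, and the line is the median of the 4 libraries of a group; hippocampal values run from 5.96 to 2849 CPM within overlapping groups.

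The other 9 genes tracked Ttr across hippocampal libraries. Over the 16 libraries, Pearson's r with Ttr on log2 CPM ran from 0.884 (Kl) to 0.997 (Slc4a5) and Spearman's rho from 0.947 to 0.997, with a permutation p of 1e-05 for each, the smallest that 100000 resamples can give (adjusted p = 2.11e-05 over 19 relations). Without the 2 libraries farthest from the median Ttr, r ran from 0.874 (Otx2) to 0.994 (Clic6). With group means removed it ran from 0.878 to 0.996, so the relation held within groups. All 10 genes share the library and its depth.

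Among the carriers and receptors, Folr1, the folate receptor that moves folate into cerebrospinal fluid (ENSMUSG00000001827, chromosome 7), ran from 0.0338 to 19.2 CPM in hippocampus, with the lowest and highest libraries the same as for Ttr. Prlr, the prolactin receptor (ENSMUSG00000005268, chromosome 15), ran from 1.96 to 61.6 CPM there. Aqp1, a water channel of the ventricle-facing membrane (ENSMUSG00000004655, chromosome 6), ran from 0.271 to 27.3 CPM. Slc4a5, a sodium bicarbonate cotransporter (ENSMUSG00000068323, chromosome 6), ran from 0.0677 to 28.2 CPM, and Kcne2, a potassium channel subunit (ENSMUSG00000039672, chromosome 16), from 0.102 to 19.6 CPM. Clic6, a chloride intracellular channel protein (ENSMUSG00000022949, chromosome 16), ran from 0.711 to 79.8 CPM. Tmem72, a transmembrane protein (ENSMUSG00000048108, chromosome 6), ran from 0.169 to 44.5 CPM. Otx2, a homeodomain transcription factor needed to form the choroid plexus (ENSMUSG00000021848, chromosome 14), ran from 0.575 to 16.3 CPM.

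The proportions to Ttr varied little where Ttr was high and more where it was low. In the 11 hippocampal libraries with over 400 CPM of Ttr, Clic6 had 28.0 to 36.6 counts per 1000 Ttr counts, a 1.31-fold range. Folr1 had 5.57 to 7.66 and Slc4a5 8.87 to 12.8 counts per 1000. The widest range in those 11 was that of Prlr, at 15.8 to 36.5 counts per 1000, a 2.30-fold range. Over all 16 libraries Slc4a5 kept to 8.87 to 15.1 counts per 1000 and Folr1 to 5.38 to 11.7, while Clic6 reached 119, Prlr 330 and Kl 3960 counts per 1000 in KO cPSE F3, the library with the least Ttr.

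Kl, which encodes klotho, a co-receptor for the hormone FGF23 (ENSMUSG00000058488, chromosome 5, forward strand), did not approach 0 where Ttr did. It measured 140, 27.9, 23.1 and 159 CPM in KO cPAE hippocampus and 19.4, 23.6, 77.9 and 48.0 CPM in KO cPSE hippocampus. It measured 37.7, 97.2, 61.0 and 47.2 CPM in WT cPAE and 77.0, 20.4, 75.9 and 53.9 CPM in WT cPSE. A straight line of Kl on Ttr had an intercept of 19.0 ± 1.97 CPM (SE) and a slope of 49.7 ± 1.67 CPM per 1000 CPM of Ttr. In the library with the least Ttr, KO cPSE F3, Kl stood at 23.6 CPM while Folr1 stood at 0.0338 CPM, which is 2 counts. The intercepts of the other 8 genes lay between -0.484 (Aqp1) and 3.23 CPM (Prlr). In vermis Kl ran from 0.723 to 5.05 CPM, below every hippocampal library.

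**Figure D2:**
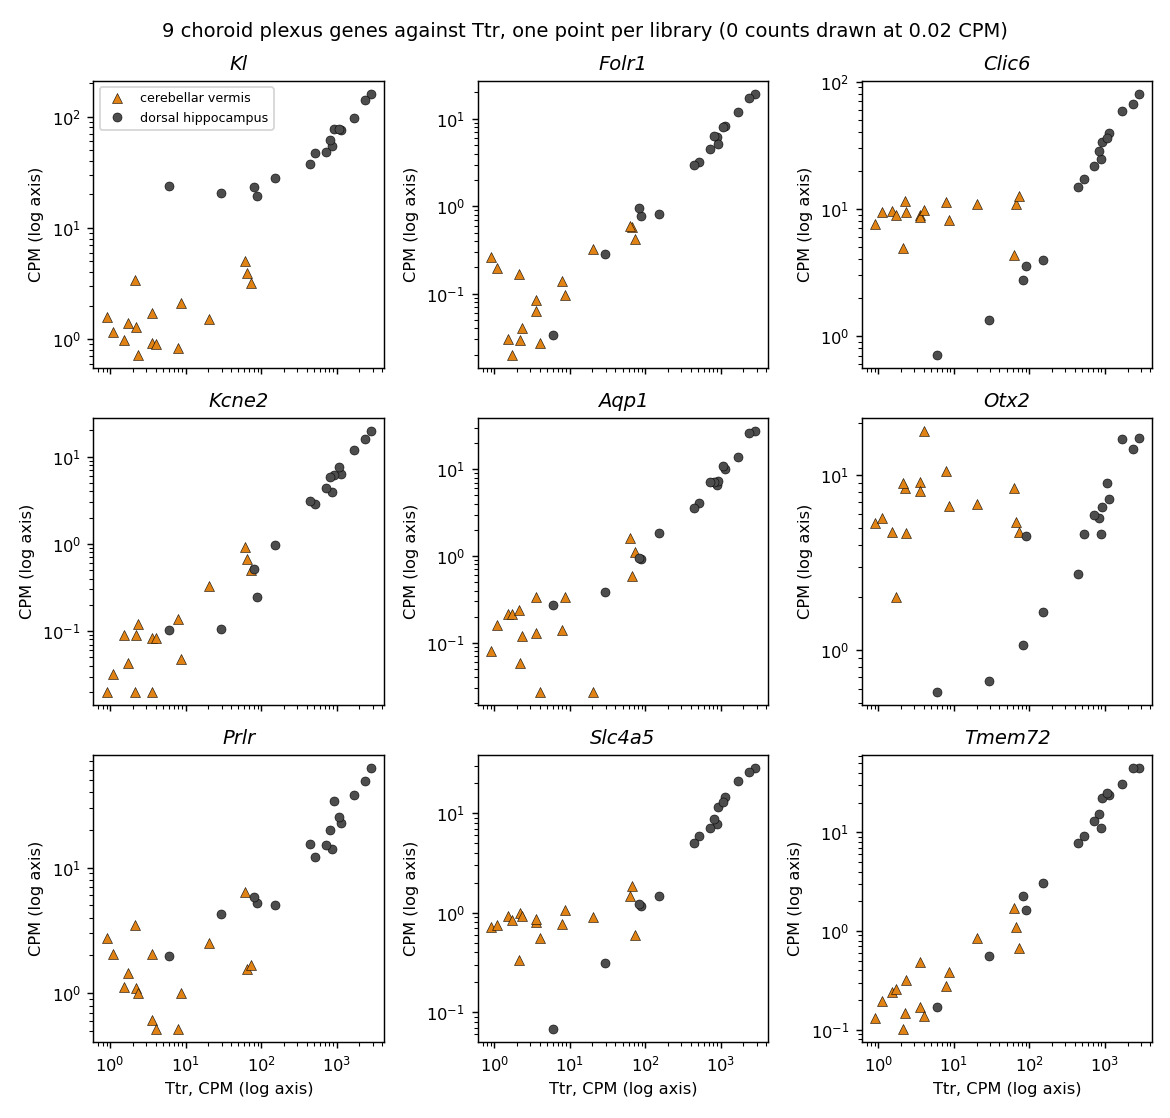
The other 9 genes against Ttr, both in CPM on log axes, with 1 point per library (triangles for vermis, circles for hippocampus). Kl levels off near 20 CPM in hippocampal libraries with little Ttr. In vermis Clic6 (4.37 to 12.6 CPM) and Otx2 (2.01 to 17.8 CPM) do not track Ttr.

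Promoters are shown for Kl, which kept a level where Ttr was low, and for Kcne2 and Tmem72, which tracked Ttr in both tissues. They are windows from 250 bases before to 50 bases after an annotated start, taken from RefSeq on GRCm38.p6, a different build from the counts, with CG dinucleotides in capitals. RefSeq windows were matched for 7 of the 10 genes.
Kl, chr5:150952357-150952656, forward strand: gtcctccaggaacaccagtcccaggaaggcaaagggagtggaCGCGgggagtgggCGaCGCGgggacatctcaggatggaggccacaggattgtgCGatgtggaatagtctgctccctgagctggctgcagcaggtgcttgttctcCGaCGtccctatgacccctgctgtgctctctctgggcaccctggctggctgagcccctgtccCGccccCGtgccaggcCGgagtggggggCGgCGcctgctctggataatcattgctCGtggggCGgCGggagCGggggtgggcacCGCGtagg
Kcne2, chr16:92292139-92292438, forward strand: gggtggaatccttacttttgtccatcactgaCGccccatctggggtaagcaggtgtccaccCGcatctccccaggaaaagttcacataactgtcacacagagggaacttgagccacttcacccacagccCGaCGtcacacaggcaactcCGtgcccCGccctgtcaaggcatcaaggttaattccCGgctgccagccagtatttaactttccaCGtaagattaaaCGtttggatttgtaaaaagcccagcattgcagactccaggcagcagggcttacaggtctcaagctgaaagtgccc
Tmem72, chr6:116716709-116717008, reverse strand: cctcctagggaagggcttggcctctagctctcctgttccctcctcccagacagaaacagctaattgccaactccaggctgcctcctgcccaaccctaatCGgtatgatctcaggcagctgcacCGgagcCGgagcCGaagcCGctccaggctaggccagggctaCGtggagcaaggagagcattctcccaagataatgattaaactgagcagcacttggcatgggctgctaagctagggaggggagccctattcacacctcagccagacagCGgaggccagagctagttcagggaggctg
The Kl window held 19 CG dinucleotides and 67.3% G or C, the Kcne2 window shown 9 and 53.0%, and the Tmem72 window 7 and 59.0%. Another Kcne2 window, starting at 92295366 and not shown, held 1 CG dinucleotide and 48.7% G or C. The median over all 32851 windows was 7 CG dinucleotides, and 71.9% of them held fewer than the Kl window. The letters TAATCC, the motif bound by Otx homeodomains, searched on both strands (GGATTA on the other), were in 1 of the 13 windows of these genes, an Otx2 window, and in 7.06% of all windows. A match describes the letters only, and Clic6, Folr1 and Ttr are named without a sequence.

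Per kilobase of the annotated length, Ttr led in hippocampus at a median of 650 CPM per kilobase, above Clic6 in 16 of 16 libraries. Clic6 at a median of 5.92 and Kl at 5.46 CPM per kilobase followed, with Clic6 above Kl in 9 of 16, so their order is not set beyond the spread. Aqp1 (2.60), Kcne2 (2.33) and Folr1 (2.09) were close to each other, with Aqp1 above Kcne2 in 9 of 16 libraries and Kcne2 above Folr1 in 12 of 16. Slc4a5 (1.28) and Otx2 (1.22) were not ordered, each above the other in 8 of 16, and Prlr (0.992) and Tmem72 (0.701) were lowest. In vermis the order was another one: Ttr at a median of 3.00 CPM per kilobase, above Clic6 (2.41) in 10 of 16 libraries, then Otx2 (1.60), and the other 7 genes at 0.157 or less.

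The region comparison asked how far the genes differed between vermis and hippocampus of the same mouse. In the fit with mouse as a block, 8 of the 10 genes were lower in vermis, where 37.4% of 24458 genes were called lower and 71.3% were called in either direction. With that background, being called says little about these genes, and their sizes say more. Ttr differed by a log2 fold change of -6.60 ± 1.05 (SE; edgeR's quasi-likelihood test, Benjamini-Hochberg adjusted p = 2.93e-05). Kl differed by -4.99 ± 0.33 (edgeR adjusted p = 7.17e-10) and Tmem72 by -4.93 ± 0.62. Kcne2, Folr1, Aqp1, Prlr and Slc4a5 lay between -4.80 and -2.80. The median over the 10 genes was -4.63, against -0.03 over all genes tested. In the 4 WT cPSE mice alone 6 of the 10 were called, and Folr1 (-4.51, edgeR adjusted p = 0.0936) and Slc4a5 (-2.74, adjusted p = 0.117) were not.

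Clic6 and Otx2 did not pass that test. Clic6 measured 4.37, 12.6, 8.17 and 4.91 CPM in KO cPAE vermis, 9.72, 10.9, 9.48 and 9.40 in KO cPSE, 8.93, 8.61, 11.3 and 8.94 in WT cPAE and 10.8, 7.62, 9.62 and 11.4 in WT cPSE. In hippocampus it measured 66.2, 3.94, 2.75 and 79.8 CPM in KO cPAE, 3.58, 0.711, 35.8 and 21.5 in KO cPSE, 14.8, 58.4, 28.6 and 17.0 in WT cPAE and 33.8, 1.33, 39.5 and 24.8 in WT cPSE. Vermis levels thus stayed within a narrow band that lay inside the hippocampal range. The region difference of Clic6 was a log2 fold change of -0.86 ± 0.58 (edgeR adjusted p = 0.201), and without the mouse block it was called, at -1.49 (adjusted p = 0.00639). Otx2 measured 8.41, 4.73, 6.67 and 9.08 CPM in KO cPAE vermis, 17.8, 5.38, 5.71 and 4.66 in KO cPSE, 9.18, 8.16, 10.5 and 2.01 in WT cPAE and 6.85, 5.33, 4.71 and 8.42 in WT cPSE, with a region log2 fold change of 0.53 ± 0.38 (edgeR adjusted p = 0.222). The antisense lncRNA Otx2os1 ran from 0.107 to 0.930 counts per 1000000 of the plain library total in vermis and from 0 to 1.39 in hippocampus, and whether the counting used strand is not given in the sources used here. In vermis neither gene tracked Ttr: r with Ttr was 0.0528 for Clic6 (permutation p = 0.862; rho = 0.312, permutation p = 0.236; -0.300 without the 2 farthest libraries) and 0.103 for Otx2 (permutation p = 0.702; rho = 0.232, permutation p = 0.384; 0.354 without them). There the summed level of the 10 genes, 16.9 to 99.2 CPM, was 4.64% to 74.3% Ttr.

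Only Kcne2 and Tmem72 still tracked Ttr in vermis on every measure computed. Kcne2 had r = 0.862 (permutation p = 6.00e-05, adjusted p = 0.000114) and rho = 0.735 (permutation p = 0.00169), with r = 0.791 without the 2 farthest libraries. Tmem72 had r = 0.856 (permutation p = 9.00e-05, adjusted p = 0.000155) and rho = 0.738 (permutation p = 0.00128), with r = 0.833. Both were near the counting floor, where 3 counts equal 0.130 CPM in the shallowest library: Kcne2 ran from 0 in 3 of 16 libraries to 0.919 CPM, and Tmem72 from 0.101 to 1.70 CPM. Folr1 (r = 0.687, permutation adjusted p = 0.00602), Kl (r = 0.648, adjusted p = 0.0102) and Aqp1 (r = 0.60, adjusted p = 0.0197) passed by Pearson's r. They did not pass by rho, at 0.485, 0.391 and 0.397 (permutation adjusted p = 0.0941, 0.181 and 0.181), and r was 0.530, 0.475 and 0.388 without the 2 farthest libraries. Slc4a5 (r = 0.440, rho = 0.303, permutation adjusted p = 0.115 and 0.297) and Prlr (r = 0.217, rho = -0.050, permutation adjusted p = 0.468 and 0.858) passed by neither.

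The transcript models of Clic6 also differed between the regions. Both annotated models are protein coding, a short one of 376 bases and a long one of 3758 bases. Counts of the short model per 100 counts of the long one were 16.9 to 29.4 in vermis (median 23.8) and 10.1 to 20.2 in hippocampus (median 13.8), with overlapping ranges. How reads that fit both models were counted is not given in the sources used here. The lncRNA 2410124H12Rik, which lies before Clic6 on the same strand, averaged 3.13 counts per 1000000 of the plain library total in vermis and 0.0989 in hippocampus; its part in the Clic6 counts was not tested. Kcne2 lies 193 kb from Clic6 on chromosome 16 with 9 listed genes between. Among these, on the same plain scale, Rcan1 ran from 37.4 to 49.6 and Smim11 from 3.38 to 6.02 in hippocampus. Kcne2 and Clic6 spanned 193-fold and 112-fold there on TMM-scaled CPM.

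The exposure comparison asked whether prenatal ethanol changed the genes in each genotype and region. None of the 10 genes was called in hippocampus. In KO hippocampus (cPAE over cPSE) 0 of 10 passed, where 0.0513% of 23394 genes were called, and Ttr had a log2 fold change of 2.04 ± 1.55 (edgeR's quasi-likelihood test, adjusted p = 0.706). In WT hippocampus 0 of 10 passed, where 0% of genes were called by edgeR (2457 had an unadjusted p under 0.05, and DESeq2 called 128), and Ttr had 0.55 ± 1.44 (edgeR adjusted p = 0.937). All 10 values were positive in each, with medians of 1.72 in KO and 0.49 in WT against 0.01 in each over all genes, but the genes vary together and are not 10 separate observations. The groups of summed CPM overlapped: 120 to 3305 in KO cPAE against 33.4 to 1284 in KO cPSE, and 537 to 1991 in WT cPAE against 57.5 to 1342 in WT cPSE. DESeq2 called none of the 10 in either, and no member had an unadjusted p under 0.05.

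The genotype comparison (KO over WT) and the interaction gave no hippocampal calls either. In cPAE hippocampus 0 of 10 passed (0.171% of genes called), with Ttr at 0.50 ± 1.41 (edgeR adjusted p = 0.961). In cPSE hippocampus 0 of 10 passed (0.00427% of genes called), with Ttr at -0.99 ± 1.47 (edgeR adjusted p = 0.910). The exposure effect in KO minus that in WT was 1.49 ± 2.01 for Ttr (edgeR adjusted p = 0.864; 0 of 10 passed, 0.175% of genes called). Females minus males gave -1.05 ± 1.13 for Ttr (edgeR adjusted p = 0.846; 0 of 10 passed, 0.0769% of genes called). No member had an unadjusted p under 0.05 in any of these 4, and DESeq2 called none.

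The spread between mice was wide for these genes. The biological coefficient of variation of the 10 genes in hippocampus was 0.65 (Kl) to 1.24 (Kcne2), at the 96.8th to 99.9th percentile of 23394 genes, whose median was 0.16. A fit without the low-count filter called 5 to 10 of the 10 genes in each hippocampal comparison. That fit had an infinite prior df for the median gene and for Ttr, so it used a trend value, a quasi-dispersion of 0.651 for Ttr where Ttr's own was 180, against 176 used in the filtered fit. Removing 1 library moved Ttr's WT exposure difference to -0.42 (without WT cPAE F3, the library high in medial habenula genes) and its cPAE genotype difference to -0.94 (without KO cPAE F1). Without KO cPSE F1, the library high in thalamus genes, Ttr's KO exposure difference was 1.57 (edgeR adjusted p = 0.769) and its cPSE genotype difference was -0.57 (adjusted p = 0.953).

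**Figure D3:**
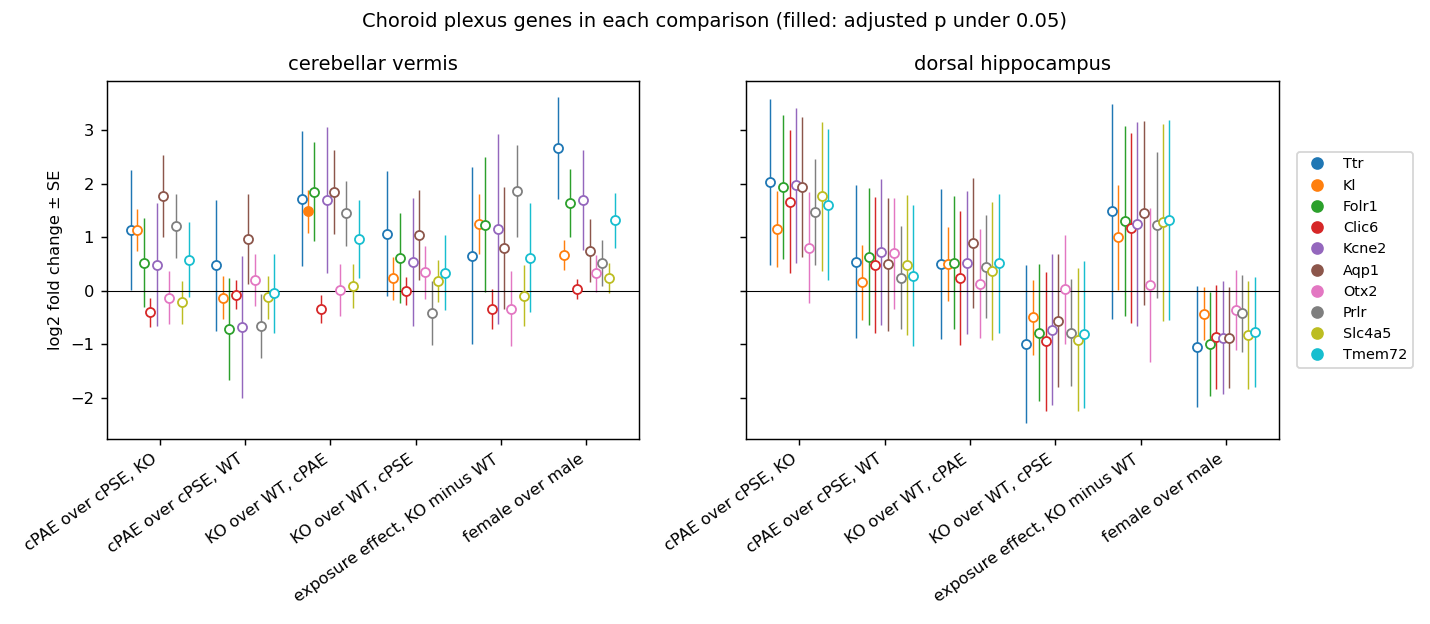
Log2 fold changes of the 10 genes with standard errors, for cerebellar vermis (left) and dorsal hippocampus (right). Filled points passed an adjusted p of 0.05; among the comparisons drawn, the only filled point is Kl for KO over WT in cPAE vermis, at 1.49.

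In vermis the same comparisons gave 1 call. Comparisons within a tissue share groups, so their values are not separate evidence. Kl was higher in KO cPAE vermis, at 5.05, 3.21, 2.13 and 3.38 CPM, than in WT cPAE vermis, at 1.70, 0.928, 0.832 and 1.41 CPM. For Kl the 2 groups did not overlap, which says little by itself because the share of all genes without overlap was not computed. The log2 fold change was 1.49 ± 0.40, 2.81-fold (edgeR's quasi-likelihood test, adjusted p = 0.0352), where 7.53% of 22441 genes were called and 5.74% were called higher. The other 9 genes were not called: 8 had positive values, up to 1.86 for Folr1, and Clic6 had -0.34. Ttr had 1.73 ± 1.26 (edgeR adjusted p = 0.399). Aqp1 measured 1.59, 1.10, 0.338 and 0.236 CPM in KO cPAE vermis and 0.336, 0.128, 0.139 and 0.213 CPM in WT cPAE vermis, with a log2 fold change of 1.84 ± 0.78 (edgeR adjusted p = 0.160). Prlr measured 6.43, 1.69, 1.01 and 3.48 CPM in KO cPAE vermis and 2.06, 0.608, 0.520 and 1.45 CPM in WT cPAE vermis, with 1.45 ± 0.60 (edgeR adjusted p = 0.158). Both genes overlapped between the groups. Without KO cPAE F3, Clic6 was called lower, at -0.74 (edgeR adjusted p = 0.0149), and also lower in KO cPAE than in KO cPSE vermis, at -0.81 (adjusted p = 0.0427). Leaving out F3, the shallowest library, raised the genes called from 1690 to 5092 and from 20 to 616 in these comparisons. It kept KO cPAE F1 and M3, the libraries low in Purkinje neuron genes. Unadjusted edgeR p was under 0.05 for Kl, Aqp1 and Prlr, and for 5732 of all 22441 genes. DESeq2 called Kl alone of the 8 genes it gave an adjusted p.

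The Kl call was close to the threshold. It was lost without KO cPAE F1 (1.38, edgeR adjusted p = 0.0995), without KO cPAE M3 (1.32, adjusted p = 0.119), without any of WT cPAE F1, F3 and M1 (1.26 to 1.54, adjusted p = 0.0815 to 0.117), without WT cPSE M1 (adjusted p = 0.0530), with the replicate label as a block (adjusted p = 0.0523), with no sex term (adjusted p = 0.0569), and with no low-count filter (adjusted p = 0.0824). KO cPAE F1 and M3 were the libraries low in Purkinje neuron genes, and without both the Kl difference was 1.12 (adjusted p = 0.322). Granule neuron genes (8 genes, summed) stood at 1273 and 2463 CPM in those 2 libraries, against 3655 to 5213 CPM in the other 14, and haemoglobin and Alas2 counts at 23214 CPM in F1. Fibroblast genes of meninges and choroid stroma (12 genes, summed) were at 165 to 288 CPM in KO cPAE vermis and 109 to 198 CPM in WT cPAE vermis. Of these 12, 5 were called higher, where 5.74% of all genes were called higher. Other lists had calls too: 2 of 10 endothelium genes, 2 of 5 blood cell genes and 1 of 16 ependyma genes were higher, and 0 of 6 border macrophage genes. The part of these markers in the Kl result was not tested. With Ttr as a covariate, added after the data were seen, the Kl difference was 1.23 (adjusted p = 0.10).

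Kl was not called in the other vermis comparisons. Exposure in KO (cPAE over cPSE) gave 1.13 ± 0.40 for Kl (edgeR adjusted p = 0.342). There 0 of 10 passed, where 0.0891% of genes were called. The unadjusted edgeR p was under 0.05 for 2 of the 10 and for 2993 of all 22441 genes. Exposure in WT gave -0.12 ± 0.40 (adjusted p = 0.987; 0 of 10 passed, 0.00446% of genes called, 0 of 10 at an unadjusted p under 0.05). KO over WT in cPSE gave 0.23 ± 0.40 (edgeR adjusted p = 0.882; 0 of 10 passed, 4.91% of genes called, 0 of 10 at an unadjusted p under 0.05). The interaction gave 1.26 ± 0.56 (edgeR adjusted p = 0.430), so the genotype difference was not shown to depend on exposure. In the interaction 0 of 10 passed, where 0.107% of genes were called. Its unadjusted edgeR p was under 0.05 for 2 of the 10 and for 2524 of all 22441 genes. Ttr had 1.14 ± 1.12 for exposure in KO and 0.48 ± 1.23 for exposure in WT (edgeR adjusted p = 0.630 and 0.984). Its values were 1.07 ± 1.17 for KO over WT in cPSE and 0.66 ± 1.65 for the interaction (edgeR adjusted p = 0.799 and 0.884).

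Female vermis libraries held more Ttr than male ones on average, by a log2 fold change of 2.67 ± 0.95, with an edgeR adjusted p = 1.00 and an unadjusted p of 0.0161. In that comparison 0 of 10 genes passed, where 0.0535% of genes were called. The unadjusted edgeR p was under 0.05 for 4 of the 10 and for 710 of all 22441 genes. All 10 values were positive, against 51.1% over all genes, but the 10 genes share their libraries and are not separate observations. DESeq2 called none of the 10.

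**Figure D4:**
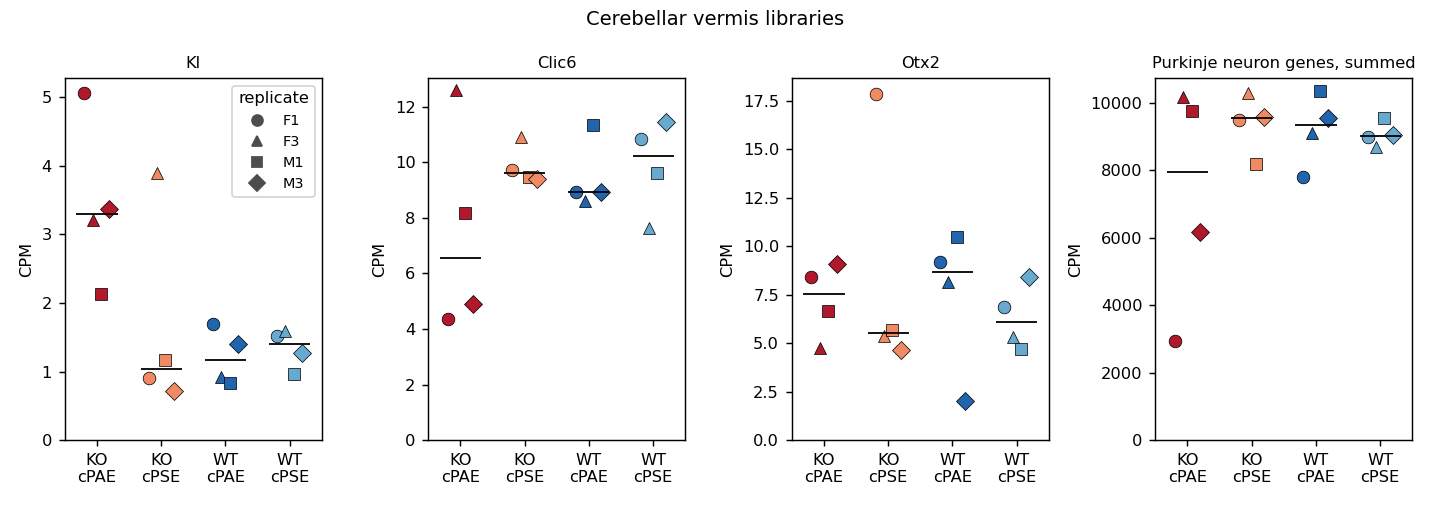
Kl, Clic6, Otx2 and the summed Purkinje neuron genes in the 16 vermis libraries, in CPM from 0, with the median of each group as a line. Kl is higher in the 4 KO cPAE libraries (2.13 to 5.05 CPM) than in the 4 WT cPAE libraries, and the Purkinje sum is lowest in KO cPAE F1 and M3. How many of all genes separate these groups in the same way was not computed.

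Other choroid plexus epithelium genes, 30 from a list that leaves out the 10, were high as a sum in the same hippocampal libraries. Their summed CPM was 2787 and 2660 in KO cPAE M3 and F1, the libraries with the most Ttr, and 343 in KO cPSE F3, the one with the least. Enpp2, the enzyme autotaxin that the plexus secretes, had the highest mean among them, at 142 to 1918 CPM, and so weighed most in the sum. Its mean was 773 CPM in hippocampus and 133 CPM in vermis. Over hippocampal libraries Slc29a4 (r = 0.146) and Car12 (r = 0.491) followed the mean of the 10 genes least. The rest of the listed genes with a mean of at least 1 CPM had r of 0.794 (Wfikkn2) or more. In the region fit 22 of the 30 were lower and 2 higher in vermis (median -1.97), where 37.4% of all genes were called lower and 71.3% in either direction. Within hippocampus, 0 of 30 passed in any exposure, genotype or interaction comparison. The 2 higher were Sulf1 (0.97) and Rdh5 (0.60). In vermis, KO over WT called 4 higher and 1 lower of 28 tested in cPAE, where 5.74% of all genes were called higher and 7.53% in either direction. The higher ones were Calml4 (2.30), Ecrg4 (1.31), Rdh5 (0.40) and Krt18, which was at 0.0483 to 0.203 CPM in KO cPAE and at 0 in all 4 WT cPAE libraries, and the lower one was Slc29a4 (-0.63). In cPSE vermis Ecrg4 (1.00) and Rdh5 (0.44) were called higher, 2 of 28 tested, where 4.91% of all genes were called. These names were chosen after their values were seen.

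Ependyma and motile cilia genes, which mark the cells lining the ventricle, were also high and low in those libraries: the 16 genes summed to 15.3 CPM in KO cPSE F3 and 151 CPM in KO cPAE M3. Their highest sum was 166 CPM, in WT cPAE F3, the library high in medial habenula genes. Endothelium genes stayed at 190 to 277 CPM over all 16 libraries. Fibroblast genes of meninges and choroid stroma were at 233 and 210 CPM in KO cPAE M3 and F1, against 64.1 to 197 CPM in the other 14. Igf2 alone made up 183 and 157 CPM of those sums, and its r with the mean of the 10 choroid plexus genes was 0.936. The other listed fibroblast genes had r from -0.487 (Aldh1a2) to 0.650 (Ogn). For exposure in KO, 5 of the 12 had positive values and 7 negative ones. Blood cell genes (5 genes) ran from 70.4 CPM in WT cPSE F3 to 993 CPM in KO cPAE F1. Striatal neuron genes (8 genes) were at 375 and 495 CPM in KO cPAE M3 and F1 and at 144 to 252 CPM in KO cPSE. The other KO cPAE libraries, M1 and F3, were at 174 and 177 CPM. The highest sum was 559 CPM in WT cPAE F1, the library with the least Ttr of its group, and WT cPSE F1 had 428 CPM. All 8 genes had positive values for exposure in KO (median 0.84, none called). The part of these lists in the hippocampal values was not tested. The habenula sum of 379 CPM in WT cPAE F3 came with 1991 summed CPM of the 10 genes. Dissection of neighbouring tissue was not recorded in the labels, and its part in these values was not tested.

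**Figure D5:**
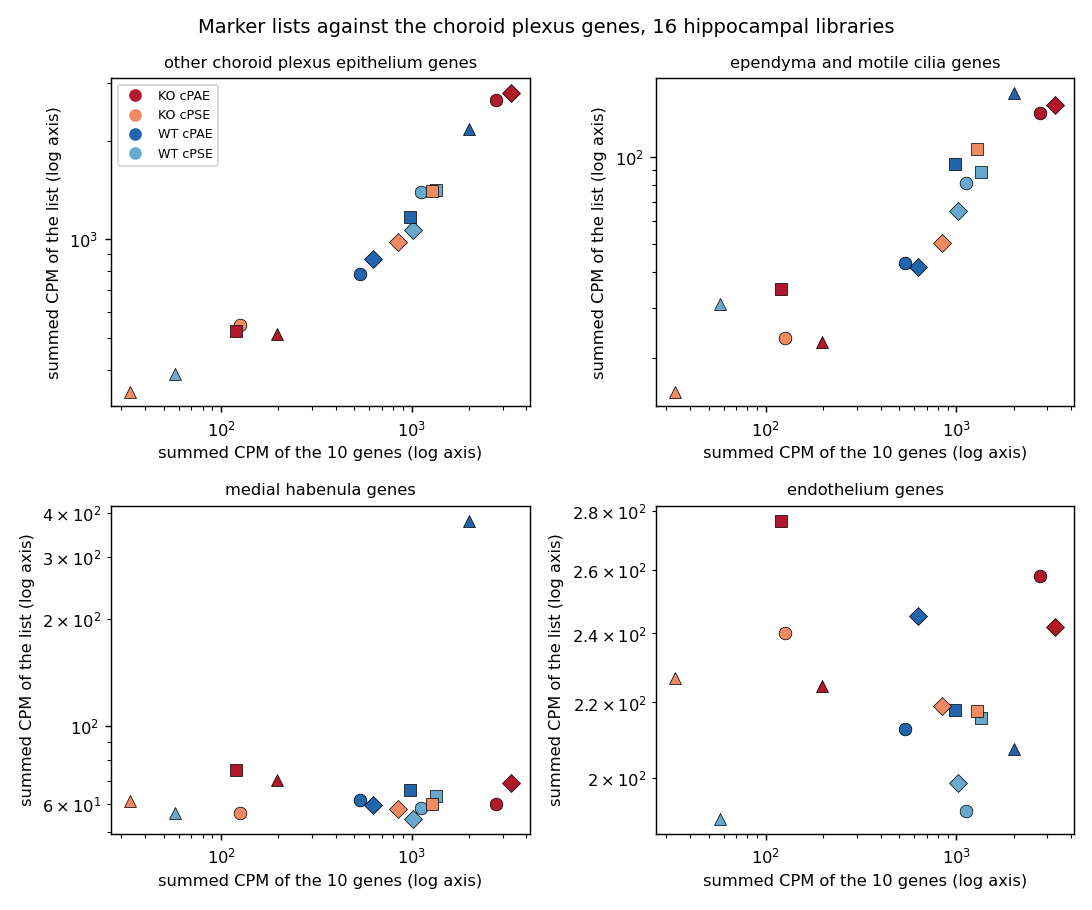
Summed CPM of 4 marker lists against the summed CPM of the 10 choroid plexus genes in 16 hippocampal libraries, all on log axes. Other choroid plexus and ependyma genes climb with the 10 genes, endothelium genes do not, and 1 WT cPAE library is high in medial habenula genes.

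The genes whose log2 CPM was most like the mean of the 10 over hippocampal libraries were Col8a1, Krt18, F5, Kcnj13, Drc7, Col8a2, Cldn2, Slc16a8, Calml4 and Ecrg4, with r from 0.995 (Col8a1) to 0.982 (Ecrg4) over 16 libraries among 14075 genes of at least 1 CPM. Of these, 113 had r over 0.9, and 9 of the 10 stayed among the 10 most alike without KO cPAE M3. Kcnj13, a potassium channel, and Krt18, a keratin, were 0.0338 CPM in KO cPSE F3. In vermis the most alike were Klhl6, Tnfaip8, Aga, Dusp19, Anxa4, F11r, Twist1, Msrb1, Stard3nl and Tppp3, with r from 0.789 (Klhl6) to 0.694 (Tppp3). There no gene had r over 0.9, and 5 of 10 stayed without the library with the highest sum.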

How the data were processed

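Libraries were polyA RNA-seq of 2 tissues from 16 mice. Per the submitters' processing notes, which list tools without roles, the authors' tools include STAR 2.7.10a, cutadapt 5.0, featureCounts 2.0.6, DESeq2 and bcl2fastq, and the build is GRCm39. Whether counting used strand is not given in the sources used here. The deposited values are raw gene and transcript counts, not normalized. Of gene counts from 1 to 20, 85.1% to 91.6% per library were even; how the mates of a read pair were counted is not given in the sources used here. Replicate libraries differed beyond sampling noise in all 48 pairs (smallest chi-square per degree of freedom 9.05), and each was counted as 1 sample.

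Counts were scaled by TMM and tested with edgeR 4.0.16 (quasi-likelihood, robust, filterByExpr, Benjamini-Hochberg threshold 0.05) in R 4.3.3, on 16 libraries per tissue with group and sex as terms, or on all 32 with mouse as a block for region. Log2 CPM used a prior count of 2. DESeq2 1.42.0, other scalings, filters and designs, and leaving out single libraries were alternatives. Correlations were permuted with scipy 1.17.1. The code was tested on simulated data. Named genes were the 10 members, with full values for Ttr and any called within a tissue, the 10 genes most like their mean per tissue, and the highest genes of other lists. Kl, Aqp1 and Prlr in uncalled comparisons were added after their values were seen. Genes and lists were chosen with earlier results of these data known. Adjusted p-values cover all genes tested.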

Additional observations from a re-analysis of the deposited data

Results flagged for a closer look

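In 9 of the 80 gene and group combinations examined, 1 of the 4 libraries lay far from the other 3, with a gap to its nearest neighbour above Dixon's critical value as a share of the group's range on log2 CPM; chance gives this in about 1 in 20 groups, and the genes are not independent of each other. Of these, 6 were the same hippocampal library, WT cPSE F3, which was low for Ttr (gap 0.931 of the range), Kcne2 (0.876), Aqp1 (0.868), Clic6 (0.862), Folr1 (0.858) and Slc4a5 (0.836). The other 3 were in vermis: Clic6 was high in WT cPAE M1 (0.865), Otx2 was high in KO cPSE F1 (0.850), and Otx2 was low in WT cPAE M3 (0.847).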

How the results depend on the processing

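Counts of genes called over the whole table moved as follows, and the cause was not tested unless stated. Without the low-count filter they were 928 for exposure in KO hippocampus (12 in the reported fit), 608 for exposure in WT hippocampus (0), 430 for genotype in cPAE hippocampus (40), 633 for genotype in cPSE hippocampus (1), 688 for the hippocampal interaction (41), 596 for sex in hippocampus (18), 52 for exposure in KO vermis (20), 4 for exposure in WT vermis (1) and 53 for the vermis interaction (24); in hippocampus that fit had an infinite prior df for the median gene and for Ttr. DESeq2 gave 113, 128, 233, 195, 272 and 51 in the same hippocampal order, and in vermis 213 for exposure in KO, 17 for exposure in WT, 3013 for genotype in cPAE (1690) and 241 for the interaction. With only the groups compared, with fewer libraries, the counts were 0 for exposure in KO, 8 for genotype in cPAE and 2 for genotype in cPSE hippocampus, and 1 for exposure in KO, 5 for exposure in WT and 693 for genotype in cPAE vermis. With no sex term the interaction counts were 41 in vermis and 23 in hippocampus, and exposure in WT vermis gave 0. With Ttr as a covariate, added after seeing the data, they were 3 for exposure in KO and 63 for genotype in cPAE hippocampus, and 2, 0 and 5 for exposure in KO, exposure in WT and the interaction in vermis. Leaving out KO cPAE vermis M3 and F1, also added after seeing the data, gave 13 for exposure in KO and 874 for genotype in cPAE. For region, the 4 WT cPSE mice alone gave 11405 (17436), and without the mouse block 9 of the 10 choroid plexus genes were called.

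Leaving out 1 library at a time, the counts ran from 0 to 19 for exposure in KO, 0 to 21 for exposure in WT, 6 to 45 for genotype in cPAE, 1 to 92 for genotype in cPSE and 0 to 24 for the interaction in hippocampus, and from 2 to 616, 0 to 2, 973 to 5092 (genotype in cPAE) and 3 to 168 (interaction) in vermis. The median of the 10 genes in the vermis interaction ran from 0.28 to 1.82. Ttr, never called in the reported fits within a tissue, changed sign: it ran from -0.42 to 1.55 for exposure in WT and -0.94 to 1.53 for genotype in cPAE hippocampus, and from -1.17 to 1.13 for exposure in WT, -0.75 to 2.04 for genotype in cPSE and -0.052 to 2.87 for the interaction in vermis. For exposure in WT vermis Ttr was -0.61 with no sex term and -0.15 with only the groups compared.

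With the replicate label as a block, Ttr for genotype in cPAE hippocampus was -0.65, and the vermis counts were 7 for exposure in KO, 0 for exposure in WT and 6 for the interaction. Between groups, deviations of same-numbered libraries had correlations of -0.317 to 0.659 in hippocampus (median 0.135, 15 of 24 pairs over 0.1). In vermis these were -0.496 to 0.545 (median 0.251, 16 of 24 pairs over 0.1). The replicate label was not a term of the reported fits, and what same-numbered mice may share was not tested. With that label as a block the Kl call in vermis was lost (edgeR adjusted p = 0.0523). In the shallowest library 3 counts equal 0.130 CPM, so vermis levels of Folr1, Kcne2, Aqp1 and Tmem72 rest on few counts.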
